A study of Mus musculus with 4 samples.

Results

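EC-2 is 1 of the 2 endothelial groups among the 23 clusters into which nuclei of mouse kidney cortex were sorted by their RNA. Its members were taken as the nuclei that the authors put in cluster 10, and the name EC-2 follows from the order of the sheets in the study's marker table. The data give EC-2 as 4 columns out of 92, each the mean over the EC-2 nuclei of 1 mouse. Endothelial cells line the blood vessels. In the kidney they form the fenestrated glomerular capillaries, the peritubular capillaries that take up what the tubules reabsorb, the vasa recta, and the arteries and veins. They depend on VEGF signalling through FLT1 and KDR and on angiopoietin signalling through TEK, and hold the wall together with cadherin 5.

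The study set a global increase of KLF6, a zinc finger transcription factor, against controls, with and without the nephrotoxin aristolochic acid I (AAI), a plant compound whose metabolites form DNA adducts. There was 1 male mouse of mixed strain per condition, and the age of these mice was not given in the sources used here. All 4 mice carried TRE-hKLF6, human KLF6 under a tetracycline response element, and all 4 were fed doxycycline at 200 mg/kg of diet for 1 week. The control genotype carried TRE-hKLF6 alone. The hKLF6 OE genotype also carried CAG-rtTA, in which the broadly active CAG promoter drives the transactivator in all tissues, so that human KLF6 was not confined to any cell type. In each genotype 1 mouse received a single intraperitoneal injection of AAI at 2 mg/kg and was killed 24 hours later. The other was labelled as having no treatment, and the study's methods name the solvent DMSO for such mice. With 1 mouse per condition there was no replicate, so no test was run, and the individual mouse and its condition cannot be told apart. All nuclei were isolated and sequenced as a single technical batch.

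Each value below is a mean normalized expression, the counts of a nucleus scaled to 10000 and averaged over the EC-2 nuclei of 1 mouse on a linear scale. Unless said otherwise, 4 values follow the order control, control with AAI, hKLF6 OE, hKLF6 OE with AAI. A difference is between log2(value + 1) in 2 mice, and a gene was called higher or lower where the difference reached 0.2 and 1 of the 2 mice had at least 0.5. The number of nuclei and the depth behind each mean are unknown, so no interval could be given. Genes at 0 made up 34.5%, 34.4%, 29.9% and 34.2% of the 19609 genes in EC-2, and the lowest value above 0 lay between 0.00175 and 0.00800, so EC-2 ranked 9 to 13 of the 23 clusters from the fewest genes at 0.

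Flt1 and Meis2, taken here as the markers of EC-2, were high in all 4 mice. The clusters were built from these data, so this is a description and not a test of the label. Flt1, the VEGF receptor at chr5:147561604-147726011, was at 22.2, 23.3, 23 and 22.4, against 6.68 in the next cluster, Macrophage, and 3.803 in EC-1 (means over the 4 mice). Meis2, a TALE homeobox transcription factor at chr2:115863064-116065839, was at 53.5, 49.8, 52.97 and 59.8, against 15.95 in Macrophage and 13.8 in the mesangial cluster MC. The 4 mice lay within a narrow band for both genes and far above the 5 normal proximal tubule clusters, whose mean was 0.122 for Flt1 and 0.467 for Meis2. Coordinates are those of GRCm38 (mm10).

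All 32 genes of a pan-endothelial marker list were in the data, and 28 of them had their highest mean of the 23 clusters in EC-2. Their summed level was 134, 154, 143 and 145 in EC-2, 22.2 to 30.8 in EC-1, 16.3 to 29.3 in MC, 36.2 to 60.8 in Macrophage and 1.36 to 1.71 in the normal proximal tubule clusters. The exceptions were Vwf, Cldn5, Robo4 and Adgrf5. Vwf, which encodes von Willebrand factor, was at 0, 0.0342, 0.1199 and 0.0634, and Cldn5, the tight junction claudin of many endothelia, at 0.116, 0.0671, 0.173 and 0.0854. Both were thus near 0 in every mouse. Adgrf5, an adhesion receptor, was at 3.02, 4.81, 4.59 and 4.99, and its highest level was in the intercalated cell cluster IC-A, at 16.2.

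Set against the other 22 clusters (their mean within the same mouse), 156 genes stood at least 1 higher on the log2(value + 1) scale in all 4 mice, out of 3141 genes with at least 0.5 in all 4 EC-2 columns (4.97%). This is a description of the cluster and not a test, since the clusters were built from these genes. Of the 156 genes, 132 had their highest mean in EC-2. The next highest level lay in Macrophage for 76 genes, in MC for 29, in Podocytes for 13 and in EC-1 for 7. Just inside the limit were H2-D1 with a smallest difference of 1.01 and Sema3d with 1.00, and just outside were Itga9 with 0.999 and Pdgfd with 0.996.

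Among the 15 genes with the largest differences were Flt1, Meis2, Emcn, Plpp1, Ldb2, Adgrl4, Ebf1, Ptprb, Tek, Cyyr1, Heg1, Ptprm, Exoc3l2 and Arhgap31. Emcn, the sialoglycoprotein endomucin of capillary and venous endothelium, was at 19.8, 20.1, 18.7 and 16.2. The mean of Emcn in the next cluster, Macrophage, was 5.33. Tek, the angiopoietin receptor, was at 11.02, 13.98, 12.1 and 14.5, and Ptprb, the phosphatase that acts on it, at 10.7, 13.1, 12.4 and 14.8. Ldb2, a cofactor of LIM-domain transcription factors, was at 21.9, 34.1, 21.6 and 30.8, with 12.9 in MC. Heg1, a transmembrane partner of the cerebral cavernous malformation proteins, was at 10.7, 12.02, 11.99 and 11.5.

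**Figure D1:**
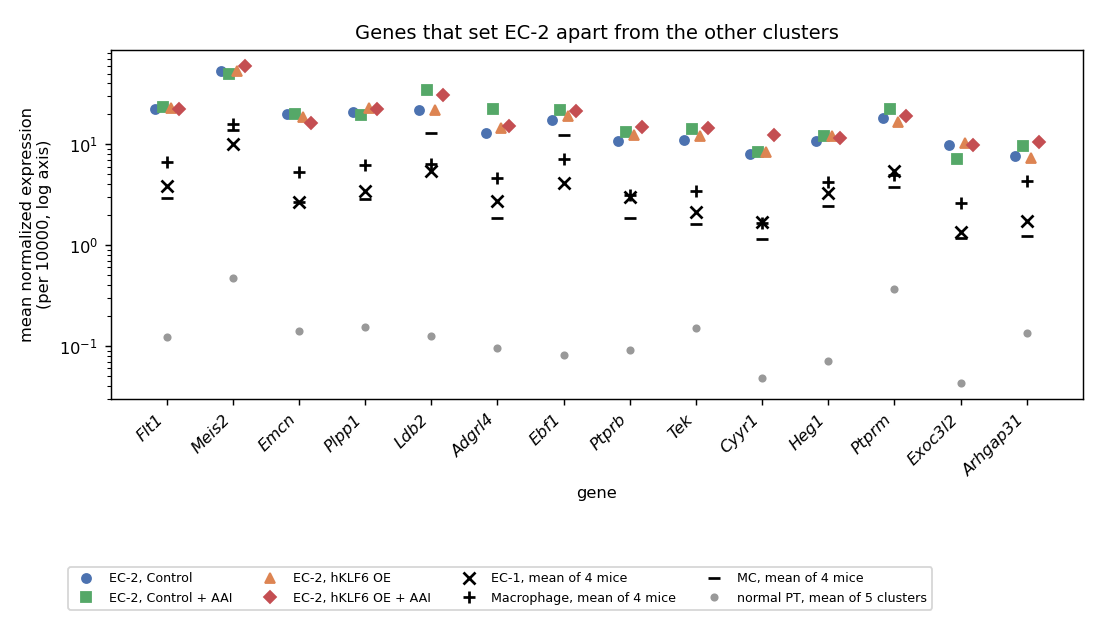
Mean normalized expression per 10000 (log axis) of 14 of the 15 genes with the largest identity difference in EC-2, 1 coloured point per mouse, with the means over 4 mice in EC-1, Macrophage and MC and the mean of the 5 normal proximal tubule (PT) clusters. For each of the 14 genes all 4 EC-2 mice lie above the other clusters drawn, with Flt1 between 22.2 and 23.3 and Macrophage at 6.68.

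By vessel type, EC-2 held some markers of glomerular and of peritubular capillaries. Of 7 glomerular markers 5 were found, 3 with a mean of at least 0.5 and 2 highest in EC-2. These 5 summed to 4.15, 3.21, 3.96 and 4.14 in EC-2, and to 1.80 to 3.56 in Podocytes. Of the 7 peritubular capillary and vasa recta markers 6 had a mean of at least 0.5 and 4 were highest in EC-2. Plvap, the diaphragm protein of fenestrated capillaries, was at 4.36, 4.92, 5.60 and 4.44 and was highest in EC-2. Igfbp3 (6.80, 4.98, 4.60 and 2.76), Igfbp5 (10.4, 12.2, 7.76 and 4.69) and Esm1 (2.65, 1.28, 1.30 and 1.23), all 3 taken here as peritubular capillary and vasa recta markers, were also highest there. Ehd3, a membrane trafficking protein used as a glomerular endothelial marker, was at 1.85, 0.9495, 2.08 and 2.37 and Nostrin, a regulator of endothelial nitric oxide synthase, at 1.32, 0.818, 0.918 and 0.622. Both of these were again highest in EC-2.

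Of larger vessels, the 15 arterial markers summed to 8.12, 8.09, 6.98 and 7.22, with 6 at a mean of at least 0.5 and 2 highest in EC-2. Efnb2, the arterial ephrin, was one of these, at 2.09, 2.19, 2.21 and 2.60. Other arterial markers were near 0. Bmx, an arterial kinase, was at 0 in all 4 mice. Gja5, the arterial connexin 40, was at 0.159, 0.0745, 0.0372 and 0 and Hey1, an arterial Notch target, at 0, 0.00992, 0.0341 and 0.0243. Of the 6 lymphatic markers found, 2 were highest in EC-2 and 1 had a mean of at least 0.5, namely Flt4, a receptor for VEGF-C, at 0.926, 0.840, 1.17 and 1.21. Prox1, the lymphatic master regulator, was at 0.242, 0.0463, 0.0532 and 0.0847 and Pdpn, podoplanin, at 0.0511, 0.0391, 0 and 0.0113. The 7 venous markers summed to 11.16, 11.95, 14.8 and 12.7, with 4 at a mean of at least 0.5 and 3 highest in EC-2. Nrp2, a co-receptor of VEGF-C and semaphorins, was at 4.45, 3.95, 5.41 and 4.28 and Ephb4, the receptor for ephrin-B2, at 1.32, 1.78, 1.49 and 2.02. Also of the venous list, Nr2f2, the transcription factor COUP-TFII, was at 1.86, 2.58, 3.102 and 1.88, and its mean ranked 3 of 23, with 5.59 in the descending limb cluster LH-DL and 4.40 in MC, while Aplnr, the apelin receptor, was at 0.123, 0.399, 0.218 and 0.322.

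RNA of other cell types was present, and in each mouse the proximal tubule markers summed to more than the pan-endothelial list. The 20 macrophage and immune markers found summed to 9.11, 9.52, 7.53 and 6.60 in EC-2 and to 78.5 to 104 in Macrophage, with none of them at 0 in all 4 mice of EC-2 and 3 with a mean of at least 0.5. The 21 mesangial, mural and fibroblast markers found summed to 4.31, 4.46, 2.74 and 4.28 against 18.5 to 23.98 in MC. The 11 podocyte markers summed to 6.54, 11.03, 4.83 and 7.78, and the 19 distal nephron markers to 36.9, 29.1, 26.6 and 31.8. Of these lists only Lum, a fibroblast marker, and Avpr2, of the collecting duct, were at 0 in all 4 mice, and Adgre1, a macrophage marker, was near 0, at 0.0133, 0.0203, 0.0105 and 0.0267. The 25 proximal tubule markers were the most prominent, with sums of 286, 223, 310 and 201 in EC-2 against 400 to 479 in the normal proximal tubule clusters, and all 25 had a mean of at least 0.5 in EC-2. The proximal tubule sum was thus lower in both mice given AAI than in both mice without it. The share of mitochondrially encoded RNA was 3.804%, 2.15%, 4.42% and 2.30%, also lower in both mice given AAI.

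EC-1, the other endothelial cluster, held the EC-2 identity genes at a lower level. These genes were chosen for standing above the mean of the other clusters, so a lower level elsewhere was in part set by that choice. Over the 156 genes the median level in EC-1 was 20.5% of that in EC-2, against 35.0% in Macrophage, 24.8% in MC, 3.97% in Podocytes and 1.42% in the normal proximal tubule clusters. EC-1 also held more proximal tubule marker RNA, with sums of 281 to 368. No gene of the pan-endothelial list was highest in EC-1.

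AAI was compared with none in each genotype. p53 target genes were higher in the mice given AAI and mitochondrially encoded genes were lower. Of the 156 endothelial identity genes 21.8% were higher in both genotypes and 5.77% lower, against 11.8% and 8.05% of all genes. The question here was what 1 dose of AAI changed in the endothelium within a day, asked once in each genotype. In the control genotype 1525 of 5125 genes were higher with AAI (29.8%) and 1237 were lower (24.1%), 53.9% in all. In the hKLF6 OE genotype 1503 of 4977 were higher (30.2%) and 1145 were lower (23%), 53.2% in all. The median difference over all genes was 0.04 and 0.05. These 2 comparisons shared no mouse. Of 4448 genes that passed the filter in both, 882 went the same way (19.8%), of which 524 were higher in both (11.8%) and 358 lower in both (8.05%), and 369 went in opposite directions (8.30%). With each comparison centred on its own median the split became 391 higher and 476 lower, so the excess of higher genes depended on the centring. Among genes counted in both comparisons, 70.5% went the same way in EC-2, against 83.2% in EC-1, 59.2% in MC and 55.5% in Macrophage.

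**Figure D2:**
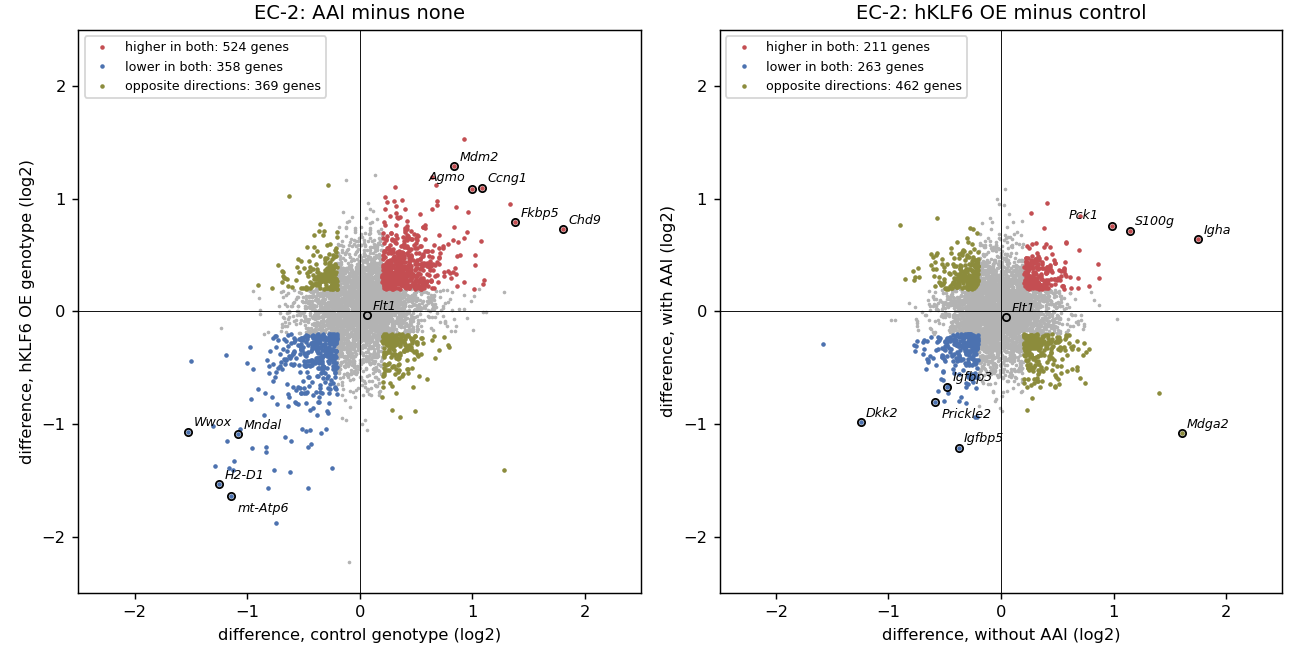
Differences in log2(value + 1) in EC-2, 1 point per gene, with AAI minus none in the 2 genotypes on the left and hKLF6 OE minus control without and with AAI on the right. For AAI 882 genes lie in the same direction in both (red and blue) against 369 in opposite directions (olive), and for genotype 474 against 462.

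The group with the largest share of genes ordered by AAI in one direction after the mitochondrially encoded genes was the p53 targets. p53 is the transcription factor that answers DNA damage with cell cycle arrest, repair or death. Of the 32 targets on the list, 31 were above 0 in at least 1 EC-2 mouse, and 21 had both mice given AAI above both mice without it, while 1 had both below. Over all 15718 genes above 0 in at least 1 EC-2 mouse the corresponding shares were 17.5% and 16.3%. The list was chosen with earlier results of these data known, so the contrast of these shares is a description and not independent support. The summed level of the 32 genes was 10.2, 20.2, 9.94 and 22.4, higher in both mice given AAI.

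Ccng1, the cyclin G1 gene, was at 0.412, 2.00, 0.540 and 2.30, a difference of 1.09 in the control genotype and 1.10 in hKLF6 OE. Mdm2, the ubiquitin ligase that degrades p53, was at 0.801, 2.22, 0.415 and 2.46, a difference of 0.84 and 1.29. Trp53inp1, a stress-induced cofactor of p53, was at 0.283, 1.5, 0.245 and 1.30, a difference of 0.96 and 0.89. In each of these 3 genes both mice given AAI lay far above both others.

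Cdkn1a, which encodes the cell cycle inhibitor p21, was at 0.00328, 0.566, 0.0532 and 0.98, near 0 without AAI in both genotypes. Gdf15, a secreted stress cytokine, was at 0.174, 1.14, 0.0393 and 0.433. Polk, a DNA polymerase that can copy past bulky adducts, was at 0.393, 1.05, 0.548 and 1.60. Eda2r, a receptor of the TNF receptor family, was at 0.0816, 0.260, 0.0742 and 0.790, with the hKLF6 OE mouse given AAI as the highest. Xpc, the damage sensor of nucleotide excision repair, was the 1 target below in both mice given AAI, at 0.713, 0.237, 0.616 and 0.247. Among the members that passed the filter in both comparisons, 7 of 15 were counted as higher in both and 1 as lower, against 11.8% and 8.05% of all genes. A low gene can pass the filter through its level with AAI alone, so that count is given only as a description.

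**Figure D3:**
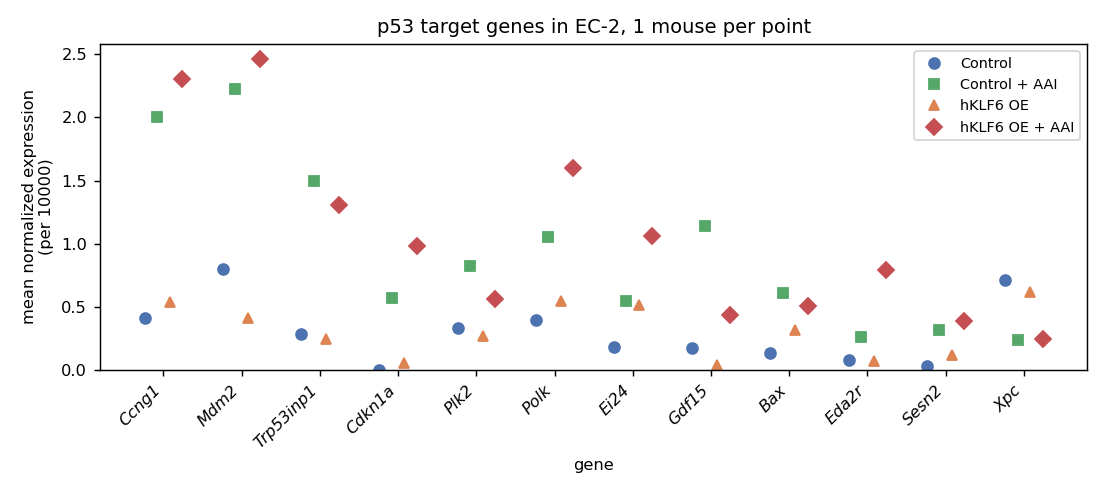
Mean normalized expression per 10000 of 12 p53 target genes in EC-2, 1 point per mouse. For Ccng1 the mice given AAI lie at 2.00 and 2.30 and the others at 0.412 and 0.540, while Xpc shows the reverse order.

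The same order was seen in the other clusters. The median of the members that passed the filter was 0.50 and 0.44 in EC-2, and in the other 22 clusters it ran from 0.11 to 1.14 in the control genotype and from 0.03 to 1.30 in hKLF6 OE, above 0 in 22 of 22 in each. With no filter on low values the EC-2 median was 0.23 and 0.20. EC-2 ranked 10 of 23 and 16 of 23. Ccng1 was higher with AAI in both genotypes in 22 of the 22 other clusters, Mdm2 in 19, Trp53inp1 in 19 and Cdkn1a in 6.

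Of the p53 targets higher with AAI in both genotypes, Ccng1 and Cdkn1a carry letters close to the p53 consensus (a joined pair of 10-base units) shortly before a transcription start, and their upstream stretches are shown because p53 is known to act through such elements. RefSeq promoters of GRCm38.p6 were found for 23 of the 32 list genes, 34 promoters in all, and the 250 bases before each start were searched for the 20-base p53 consensus with at most 1 mismatch and the C and G core of each unit kept. The consensus reads the same on both strands. Of 34 promoters 2 held it (5.88%), against 19 of 32851 promoters in all (0.0578%). Among genes passing the filter in both AAI comparisons 4 of 4659 promoters held it (0.0859%), those of Ccng1, Cdkn1a, Mthfd1 and Rps27l. Of the 554 promoters of genes higher with AAI in both genotypes 2 held it (0.361%), again those of Ccng1 and Cdkn1a. Mthfd1 and Rps27l were not called higher in both. The list was made of known targets, so a match describes these promoters and says nothing of binding in these nuclei. The capitals mark the 20 bases, read 5′ to 3′ on the strand of the gene.
Ccng1, minus strand, chr11:40755287-40755536: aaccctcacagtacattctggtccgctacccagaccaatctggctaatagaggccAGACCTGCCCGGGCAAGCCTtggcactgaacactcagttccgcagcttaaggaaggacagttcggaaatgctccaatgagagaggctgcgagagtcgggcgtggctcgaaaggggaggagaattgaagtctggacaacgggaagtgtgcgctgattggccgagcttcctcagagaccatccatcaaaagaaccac
Cdkn1a, plus strand, chr17:29090729-29090978: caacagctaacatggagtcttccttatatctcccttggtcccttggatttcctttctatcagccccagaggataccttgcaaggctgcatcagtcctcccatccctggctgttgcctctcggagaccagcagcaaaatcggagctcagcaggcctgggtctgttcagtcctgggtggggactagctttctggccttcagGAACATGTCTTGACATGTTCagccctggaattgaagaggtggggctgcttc

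In Ccng1 the 20 bases lie 195 to 176 bases before the start, and in Cdkn1a 51 to 32 bases before it. Each match differs from the consensus at 1 position. For the other list genes with a promoter these letters were not in the window searched, which says nothing of sites elsewhere.

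Other genes high with AAI in both genotypes had different known roles. Agmo, the enzyme that cleaves ether lipids, was at 0.834, 2.66, 0.813 and 2.86, and the same held in only 1 of the 22 other clusters. Il15, the cytokine that maintains natural killer cells and memory T cells, was at 1.30, 3.17, 1.11 and 3.03 and was highest in EC-2 of all clusters. Apobec3, a cytidine deaminase that restricts retroviruses, was at 0.384, 2.49, 0.497 and 1.89, with 5 other clusters alike. In all 3 genes both mice given AAI lay above both others.

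Fkbp5, a co-chaperone of the glucocorticoid receptor and itself a glucocorticoid target, was at 1.35, 5.13, 2.05 and 4.28, with 9 other clusters alike. Bcl2l1, which encodes the survival protein BCL-XL, was at 2.78, 5.76, 3.76 and 6.98, with 15 other clusters alike. Chd9, a chromatin remodeller, was at 2.67, 11.8, 4.15 and 7.54 and was higher in both genotypes in 22 of the 22 other clusters. Gm28153, an antisense transcript, was at 0.533, 1.91, 0.844 and 4.32, with 15 other clusters alike. The strand setting of the counting was not given in the sources used here, so its reads cannot be told from those of a gene on the other strand.

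Among immediate early genes, 11 of 21 found in the data had both mice given AAI above both others and 2 had both below, against 17.5% and 16.3% of all genes. Egr1, a growth and injury response factor, was at 0.321, 1.06, 0.186 and 1.71 and Junb, an AP-1 subunit, at 0.235, 0.631, 0.0911 and 1.05. Dusp1, a phosphatase of MAP kinases, went the other way, at 0.829, 0.525, 0.750 and 0.434. Of inflammatory genes, Il6st, the shared receptor chain of the interleukin 6 family, was at 0.860, 1.78, 0.892 and 1.75 and Stat3, its main transcription factor, at 1.67, 3.03, 1.73 and 2.68. Of adhesion molecules, Icam1 was at 0.683, 0.475, 0.661 and 0.753, with overlap between the mice given AAI and the others. Vcam1 was at 0.616, 0.492, 0.761 and 0.558, slightly lower in both mice given AAI but under the limit, and Selp, P-selectin, was at 0 in all 4 mice. Of the 28 genes on the adhesion and inflammation list found in the data, 8 had both mice given AAI above and 2 had both below, against the same 17.5% and 16.3%.

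The endothelial identity genes were compared with AAI as a group and singly. Of the 156 identity genes 34 were higher in both genotypes (21.8%, against 11.8% of all genes) and 9 were lower (5.77%, against 8.05%). Another 15 went in opposite directions (9.62%). Of the 935 genes that passed a minimum of 2 in both comparisons, 209 were higher in both genotypes and 100 lower. The excess of higher identity genes over all genes is thus not shown to be particular to them. The part of expression level in it was not tested. The median difference of the 156 was 0.15 and 0.12. Of the pan-endothelial list, Tek and Ptprb were higher in both, and Kdr, Ramp2 and Sox18 were lower in both, so 2 and 3 of 24 members passing the filter were counted. Tek differed by 0.32 and 0.25 and Ptprb by 0.27 and 0.24. With the median over all genes taken out, the hKLF6 OE differences of Tek and Ptprb were 0.196 and 0.187, under the limit. Kdr, the main signalling receptor of VEGF, was at 3.61, 2.05, 4.67 and 2.55, a difference of -0.60 and -0.68, while its partner Flt1 differed by 0.07 and -0.03.

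Receptors, their inhibitors and ligands did not share a direction. Sox18, an endothelial transcription factor, was at 0.909, 0.457, 0.882 and 0.396. Bmpr2, the type II receptor for bone morphogenetic proteins, was at 2.72, 4.99, 3.79 and 5.52 and Smad6, an inhibitor of that pathway, at 0.989, 1.32, 0.867 and 1.61, each higher in both mice given AAI. Vegfa itself, the ligand, was at 1.30, 1.78, 0.9199 and 1.504 in EC-2. On the list of VEGF, angiopoietin and BMP9 receptors and ligands, 5 of 23 genes found had both mice given AAI above and 9 had both below, beside 17.5% and 16.3% of all genes.

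Ldb2, one of the 15 leading identity genes, differed by 0.61 and 0.49 with AAI and Arhgap31, a regulator of CDC42 and RAC1, by 0.29 and 0.47. Calcrl, the receptor for adrenomedullin, was at 3.58, 5.77, 4.82 and 6.06, while its partner Ramp2 was at 1.12, 0.770, 1.43 and 0.871. In vascular tone genes 5 of 25 had both mice given AAI above and 9 had both below (17.5% and 16.3% over all genes), with Prkg1, the cGMP-dependent kinase, at 11.5, 8.88, 11.18 and 4.77 among the latter. Of capillary lipid genes, Fabp4, a fatty acid carrier of capillaries, was at 1.66, 3.72, 1.96 and 2.78, Cd36, a fatty acid transporter, at 1.49, 1.96, 1.18 and 1.77, and Gpihbp1, which anchors lipoprotein lipase to the capillary wall, at 0.765, 0.437, 0.544 and 0.235. Fabp4 and Cd36 were higher with AAI in both genotypes and Gpihbp1 was lower. Lpl, lipoprotein lipase, was at 1.57, 0.874, 2.08 and 0.340 and was lower in 20 of the 22 other clusters as well.

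Genes low with AAI included mitochondrially encoded genes, respiratory subunits and metabolic enzymes. Of the 13 mitochondrially encoded genes 12 had both mice given AAI below both others, and none had both above. mt-Atp6, a subunit of ATP synthase, was at 62.9, 27.8, 75.2 and 23.4, mt-Cytb, of complex III, at 23.9, 10.0, 25.0 and 10.8, and mt-Nd4, of complex I, at 27.4, 12.6, 30.2 and 14.1. Of 79 nuclear genes of oxidative phosphorylation 36 had both below and 3 both above, and 22 of the 60 passing the filter in both comparisons were counted as lower, with none higher, against 8.05% and 11.8% of all genes. The median difference of those passing was -0.19 and -0.30, and the middle value of this median over the other 22 clusters was -0.08 and -0.33.

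Acy3 (7.75, 2.59, 7.70 and 2.36), an aminoacylase, Nat8f1 (5.23, 1.85, 4.70 and 1.15), an acetyltransferase, Cndp2 (3.74, 1.19, 4.51 and 1.20), a dipeptidase, and Ndrg1 (9.97, 3.91, 9.88 and 3.15), a stress-responsive gene, were each lower in both mice given AAI. The same order held in 21, 22, 21 and 22 of the 22 other clusters. Beside this group, 13 of 25 proximal tubule markers had both mice given AAI below and 3 had both above (16.3% and 17.5% over all genes), and Miox, the proximal tubule enzyme of inositol breakdown, was at 7.57, 3.86, 7.26 and 1.79. The part of proximal tubule RNA in these values was not tested. Of the 358 genes lower in both genotypes 38.3% had a higher mean in the normal proximal tubule clusters than in EC-2, against 38.0% of all genes tested and 33.2% of the 524 higher.

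Other genes low with AAI were not tubular enzymes. H2-D1, a heavy chain of MHC class I, had its highest mean in EC-2 and was at 8.24, 2.89, 10.2 and 2.88, a difference of -1.25 and -1.53, with 11 of the other clusters alike. Mndal, an interferon-inducible gene of the p200 family, was at 1.27, 0.0713, 1.23 and 0.0472, present in both mice without AAI and near 0 in both mice given it, and no other cluster met the same limit in both genotypes. In mice of mixed strain, an inherited difference and an effect of AAI cannot be told apart here. Wwox, an oxidoreductase at a common fragile site, was at 5.59, 1.29, 3.62 and 1.21 and was lower in 20 other clusters.

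Of the 20 genes of an interferon response list found, 2 had both mice given AAI above and 4 had both below, beside the 17.5% and 16.3% of all genes. Rsad2, the antiviral enzyme viperin, was at 3.34, 2.57, 3.76 and 2.20, lower with AAI in both genotypes.

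**Figure D4:**
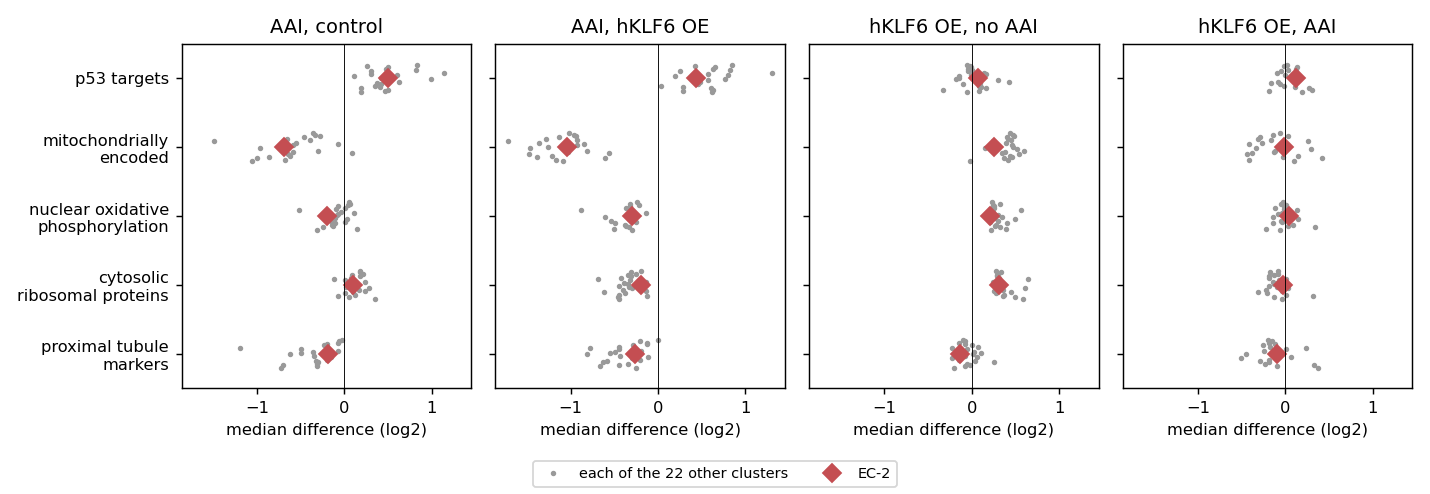
Median difference in log2(value + 1) over the list members passing the filter, for EC-2 (red diamond) and each of the 22 other clusters (grey), in the 4 comparisons named above the panels. EC-2 lies inside the range of the other clusters for all 5 lists in all 4 panels, and p53 targets lie above 0 with AAI in both genotypes, at 0.50 and 0.44.

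Genes called higher with AAI in both genotypes spanned more of the genome than those called lower. Genes under 30 kb were taken as short and those over 100 kb as long, as the study did, and spans came from GENCODE for 4411 of the 4448 genes tested. Short genes made up 18.02% of the 516 higher genes with a span, 54.5% of the 358 lower genes and 32.2% of all tested. Long genes made up 40.1%, 22.1% and 28.0%. The median span was 79.5 kb in the higher and 26.8 kb in the lower genes. Among the exceptions, Wwox is long and lower, and Ccng1 short and higher. Intronic reads were counted in these nuclei. By genotype, short genes made up 45.2% of the 208 higher genes with a span, 26% of the 262 lower and 31.8% of all tested.

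Between the genotypes, EC-2 genes called in both states went in opposite directions about as often as in the same one. Of the peritubular capillary and vasa recta markers passing the filter 4 of 6 were lower in hKLF6 OE in both states and 0 higher, and of the proximal tubule markers 4 of 25 were lower and 1 higher. Over all genes 6.07% were lower in both states and 4.87% higher. The question was what hKLF6 OE changed in the endothelium, asked without and with AAI in mice that are not shared. Without AAI 1076 of 4996 genes were higher in hKLF6 OE (21.5%) and 1255 lower (25.1%), 46.7% in all. With AAI 1136 of 4988 were higher (22.8%) and 1265 lower (25.4%), 48.1% in all. Of 4330 genes passing the filter in both, 474 went the same way (10.9%), of which 211 were higher in both (4.87%) and 263 lower in both (6.07%), and 462 went in opposite directions (10.7%). The same direction thus held for 50.6% of the genes called in both states, against 51.5% in EC-1, 54.7% in MC and 51.7% in Macrophage.

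Klf6, the mouse gene, was at 0.466, 1.27, 0.491 and 0.809 in EC-2. It was higher with AAI in both genotypes, by 0.63 and 0.28, and differed between genotypes by 0.02 without AAI and -0.33 with it. The human transgene was not analysed here, and the mouse gene says nothing of it, so the genotype labels were not checked. Polr2a, the large subunit of RNA polymerase II, was at 0.938, 1.55, 1.10 and 2.46, with a difference of 0.40 and 0.72 with AAI, and the hKLF6 OE mouse given AAI had the highest value. Of other Kruppel-like factors, Klf2, the flow-induced factor of endothelium, was at 1.75, 1.58, 1.89 and 1.30 and was highest in EC-2 of all clusters. Klf4, also flow-induced, was at 0.185, 0.462, 0.407 and 0.300. On a list of 7 known targets of KLF6 in endothelium, 4 had a mean of at least 0.5 in EC-2. Tgfbr2, a receptor for TGF-beta, was at 2.25, 3.098, 1.71 and 2.36 and Eng, its co-receptor endoglin, at 6.62, 6.08, 7.68 and 5.84. Only Tgfbr2 was counted in the same direction in both states, as lower in hKLF6 OE.

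Among the genes with the largest differences on the low side in both states was Dkk2. Dkk2, a secreted modulator of WNT signalling, was at 3.41, 2.99, 0.859 and 1.02, a difference of -1.25 without AAI and -0.98 with it, and 2 of the 22 other clusters were alike. Igfbp3, which binds insulin-like growth factors, was at 6.80, 4.98, 4.60 and 2.76 and Igfbp5, of the same family, at 10.4, 12.2, 7.76 and 4.69. In all 3 genes both hKLF6 OE mice lay below both control mice, though for Igfbp3 the margin was narrow. Igfbp5 was lower in both states in 9 other clusters and Igfbp3 in 2.

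Prickle2, a planar cell polarity protein whose highest mean was in EC-2, was at 8.79, 7.33, 5.51 and 3.77. Edil3, a secreted integrin ligand also highest in EC-2, was at 2.47, 1.51, 1.39 and 0.653, and Tnxb, a tenascin of the matrix, at 1.33, 1.30, 0.634 and 0.581. Slit3, a ligand of ROBO receptors, was at 1.99, 1.07, 1.03 and 0.269. In the peritubular capillary and vasa recta list 4 of the 6 genes that passed the filter were lower in both states, namely Igfbp3, Igfbp5, Npr3 and Aqp1, and none was higher, against 6.07% and 4.87% of all genes. Without the filter, 3 of 7 had both hKLF6 OE mice below and 0 had both above, against 13.8% and 13% of all genes. Npr3, the natriuretic peptide clearance receptor, was at 1.63, 1.23, 1.25 and 0.615, and Aqp1, the water channel of descending vasa recta, at 2.35, 2.48, 1.55 and 1.82. For Npr3 the 2 genotypes overlapped. Neither Npr3 nor Aqp1 was among the 4 genes of this list that were highest in EC-2. In the normal proximal tubule clusters the 7 genes summed to 2.70 to 3.24. The part of RNA from other cells in these values was not tested. The summed level of the 7 genes on that list was 28.2, 27.0, 22.1 and 15.6. Because these genes mark a type of vessel, fewer capillary nuclei in the column and less RNA of the genes per nucleus cannot be told apart.

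Of 29 endothelial transcription factors found, 5 had both hKLF6 OE mice below both control mice and 0 had both above, against 13.8% and 13% of all genes. Erg, the ETS factor that maintains endothelial identity, was at 1.78, 2.07, 1.11 and 1.64 and Ets1, a related factor, at 2.54, 2.93, 2.01 and 2.07, both lower in hKLF6 OE in both states. Sox17, an arterial SOX factor, was at 0.326, 1.17, 0.285 and 0.337, with the control mouse given AAI as the only high value. Of the 156 identity genes 7 were higher in both states (4.49%), 13 lower (8.33%) and 14 opposite (8.97%), and their median difference was -0.00 and -0.01.

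Of the genes with the largest differences on the high side in both states, 4 were as follows. Pck1, the gluconeogenic enzyme of proximal tubule, was at 2.95, 2.54, 6.84 and 4.99 and was higher in both states in 22 of the 22 other clusters. S100g, the calcium-binding calbindin of the distal tubule, was at 1.33, 0.941, 4.14 and 2.19 with 16 other clusters alike, and Spink1, a trypsin inhibitor, at 3.44, 1.91, 6.24 and 4.24 with 18. Igha, the heavy chain of IgA, was at 0.352, 0.203, 3.55 and 0.873. These 4 genes are not known as endothelial, and the part of RNA from other cells in their values was not tested. Pck1 was the 1 proximal tubule marker higher in both states, while 4 of 25 (Slc5a2, Slc13a3, Keg1 and Acsm2) were lower, against 4.87% and 6.07% of all genes. Without the limit, 2 of 25 had both hKLF6 OE mice above and 4 had both below, against 13% and 13.8% of all genes.

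Other genes high in both hKLF6 OE mice had general cellular roles. Pgk1, a glycolytic enzyme, was at 1.19, 0.756, 2.26 and 1.67, and Ubash3b, a phosphatase, at 0.648, 0.577, 1.66 and 1.30. Nlk, a kinase of the WNT and Notch pathways, was at 2.43, 3.59, 3.74 and 5.28, Mapkapk2, a substrate of p38, at 0.544, 0.848, 1.11 and 1.63, and Tapbp, the peptide-loading chaperone tapasin, at 0.332, 0.519, 0.970 and 1.05. None of Nlk, Mapkapk2 and Tapbp was higher in both states in any other cluster by the same limit. Of the low side, Pi4kb, a phosphatidylinositol kinase, was at 1.25, 1.33, 0.577 and 0.614 and Slc15a2, a peptide transporter, at 1.61, 1.27, 0.834 and 0.304. Rbfox1, a splicing regulator, was at 1.75, 0.611, 0.737 and 0.129 and Trabd2b, a WNT-cleaving protease, at 1.15, 1.53, 0.510 and 0.655, the latter with 16 other clusters alike.

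Ribosomal protein genes were mostly higher in hKLF6 OE without AAI and evenly split with AAI. Of the 49 cytosolic ribosomal protein genes passing the filter without AAI 34 were higher in hKLF6 OE and 0 lower, with a median of 0.31, against -0.02 over all genes. With AAI 13 of 52 were higher and 13 lower, with a median of -0.02. The other clusters were alike without AAI, with medians from 0.25 to 0.65 in 22 of 22. Nuclear oxidative phosphorylation genes gave 35 of 64 higher and 3 lower without AAI and 12 of 57 and 6 with it, and heat shock genes 7 of 12 higher and 0 lower without AAI. Beside these counts, 21.5% of all genes were higher and 25.1% lower without AAI, and 22.8% and 25.4% with it. The summed level of all 82 ribosomal protein genes was 52.6, 61.8, 76.0 and 58.6 in EC-2, so the hKLF6 OE mouse without AAI was the highest. The share of mitochondrially encoded RNA was also highest in that mouse, and its part in the result was not tested.

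**Figure D5:**
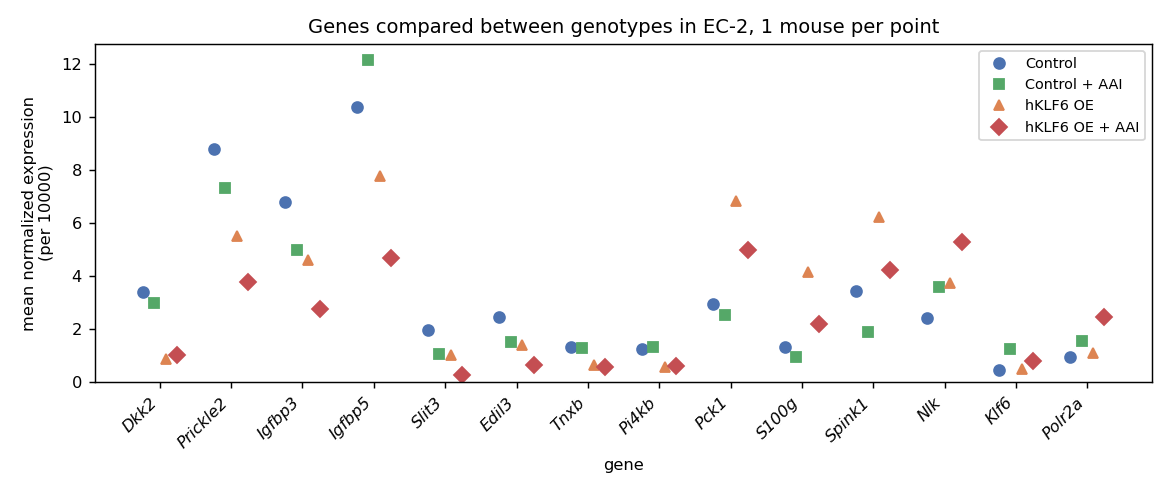
Mean normalized expression per 10000 in EC-2 of genes compared between genotypes, 1 point per mouse, with Klf6 and Polr2a. For Dkk2 the control mice lie at 3.41 and 2.99 and the hKLF6 OE mice at 0.859 and 1.02, while Pck1, S100g and Spink1 are higher in both hKLF6 OE mice.

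The largest differences of single comparisons included genes high or low in 1 mouse. Mdga2, a cell adhesion protein highest in EC-2, was at 0.143, 1.78, 2.47 and 0.311, so it was high in 1 mouse of each genotype. Ttr, transthyretin, was at 0.769, 0.652, 3.68 and 0, and Cyp2a5, a cytochrome P450, at 0.215, 2.29, 0.330 and 0.193, each high in 1 mouse. Cyp2a5 was higher with AAI in the control genotype in 19 of the 22 other clusters as well. Jchain, the joining chain of IgA, was at 0.0479, 0.182, 1.24 and 0.201 and Slc8a1, the sodium-calcium exchanger that is far higher in the connecting tubule cluster, at 6.94, 6.28, 1.65 and 4.95. Tll1, a metalloprotease highest in EC-2, was at 6.29, 7.03, 3.28 and 8.91, with the hKLF6 OE mouse without AAI as the low value. Ctnna3, an alpha catenin, was at 1.92, 0.742, 3.51 and 0.223, Rtn4, a reticulon of the endoplasmic reticulum, at 0.783, 3.34, 2.00 and 2.39, and Ubb, a ubiquitin gene, at 3.21, 2.07, 4.98 and 1.02.

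The largest genotype differences with AAI included Col4a1. Col4a1, a collagen IV chain of the vascular basement membrane, was at 1.79, 0.753, 1.75 and 2.39, low in the control mouse given AAI. Sema3d, a secreted semaphorin, was at 1.13, 1.38, 1.84 and 3.66, highest in the hKLF6 OE mouse given AAI, and Nxn, nucleoredoxin, at 5.14, 3.45, 4.98 and 7.89. Cyp26b1, which breaks down retinoic acid, was at 0.881, 0.213, 0.0117 and 1.06. Cyp26b1 was near 1 in 2 mice and low in the others, and the 2 comparisons by genotype did not give the same direction for Col4a1, Nxn and Cyp26b1. Pcdh7, a protocadherin, was at 0.167, 0.0833, 0.444 and 1.31, and Kcnmb2, a potassium channel subunit, at 0.531, 1.09, 0.304 and 0.0924. Pde8b, a phosphodiesterase, was at 1.58, 0.895, 0.315 and 0.797, and Kcnd3, a potassium channel, at 1.57, 0.653, 0.340 and 0.569. The noncoding RNAs Gm42397 and D5Ertd615e were at 1.52, 0.0171, 1.27 and 0.122 and at 7.29, 4.15, 7.51 and 9.92.

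The remaining lists are given by their counts over all members found, which stand beside 17.5% above and 16.3% below over all genes for AAI, and 13% and 13.8% for genotype. Of the 19 junction genes 3 had both mice given AAI above and 5 had both below, and 2 and 1 had both hKLF6 OE mice above and below. Cdh5, the cadherin of endothelial junctions, was at 1.26, 0.815, 1.18 and 1.68. Of the 21 Notch genes the counts were 5 and 3 for AAI and 4 and 4 for genotype, and of the 24 basement membrane and integrin genes 1 and 6 for AAI and 4 and 5 for genotype. Of 40 RNA polymerase II and processing genes the counts were 13 and 7 for AAI and 3 and 7 for genotype, and of 20 hypoxia genes 6 and 5, and 2 and 2. Of 29 endothelial transcription factors 10 had both mice given AAI above and 7 both below. Of 20 interferon genes 0 had both hKLF6 OE mice above and 8 both below, and of 20 macrophage and immune markers 1 and 8. In both of these lists the share below lies above the 13.8% of all genes. Dll4, the Notch ligand of growing vessels, was at 0.479, 0.397, 0.676 and 0.114 and Itgav, an integrin subunit, at 1.68, 2.16, 1.26 and 2.05.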

How the data were processed

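Nuclei of kidney cortex from 4 mice, 1 per condition, were profiled by single-nucleus RNA sequencing. Per the study's methods, the authors aligned reads to a mouse pre-mRNA reference with Cell Ranger, filtered nuclei and clustered them with Seurat, and the submitters' notes name the build mm10. How doublets were treated was not given in the sources used here. The deposited values are a signal, normalized expression averaged by cluster and mouse, and all 92 columns sum to 10000. The mean hides the number and depth of nuclei, so precision is unknown.

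Of 19632 rows, 23 with names that a spreadsheet had turned into dates were left out. Differences were taken between log2(value + 1), with a minimum of 0.5 in 1 of the 2 mice and a limit of 0.2, and no test was run. Fold changes on this scale understate the change of low genes. EC-2 was cluster 10. The count "both mice above both others" used no filter. Gene lists (30) came from textbook knowledge, and the members and lists were chosen with earlier results of these data known. Named genes were the 15 largest identity differences, the 10 largest differences each way shared by both comparisons, the 5 largest each way of each comparison, the extreme members of the lists, Flt1, Meis2, Klf6 and Polr2a. Members of lists named beside them were examples, and some genes that the rule gives are not reported here. Spans came from GENCODE M21 (GRCm38) and promoters from RefSeq. Replicate numbers pair nothing, since each condition is 1 mouse. The contrast function was tested on simulated data. Python 3.11.15, numpy 2.4.6, pandas 2.3.3 and scipy 1.17.1 were used. Other pseudocounts, minimums, limits and scalings were tried as alternatives.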

Additional observations from a re-analysis of the deposited data

Results flagged for a closer look

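The results here differed in sign between 1 pair of mice and the other, and the difference between the pairs was not tested. With AAI, Mdga2 differed by 1.28 in the control genotype and -1.41 in hKLF6 OE, which are 2.69 apart, and Cyp26b1 by -0.63 and 1.03, which are -1.66 apart. By genotype, Mdga2 differed by 1.60 without AAI and -1.08 with it (2.69 apart), Cyp26b1 by -0.89 and 0.77 (-1.66 apart), Ttr by 1.40 and -0.72 (2.13 apart), Ctnna3 by 0.63 and -0.51 (1.14 apart) and Ubb by 0.51 and -0.60 (1.11 apart). These 5 genes were named by the rule and reached 0.5 in both directions.

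Medians of lists, over the members passing the filter, also differed in sign between the pairs. The median of all genes was 0.04 and 0.05 with AAI in control and in hKLF6 OE. By genotype it was -0.02 without AAI and -0.02 with it. The list medians of 0.02, -0.01 and -0.02 below lie near it, so they show no clear change in the opposite direction. With AAI in control and in hKLF6 OE, the cytosolic ribosomal protein median was 0.10 and -0.20 (0.295 apart), the heat shock median 0.02 and -0.26 (0.281 apart), the interferon median 0.15 and -0.15 (0.301 apart), the adhesion and inflammation median -0.06 and 0.21 (-0.262 apart) and the distal nephron marker median -0.18 and 0.21 (-0.394 apart). By genotype without and with AAI, the ribosomal median was 0.31 and -0.02 (0.333 apart), the heat shock median 0.25 and -0.05 (0.306 apart), the mitochondrially encoded median 0.25 and -0.01 (0.267 apart) and the distal marker median -0.12 and 0.15 (-0.266 apart). All 4 mice enter both kinds of comparison, and for a single gene the gap is the same quantity in both, so for Mdga2 and Cyp26b1 the 2 kinds are 1 observation, and for the list medians they are not independent.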

How the results depend on the processing

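Counts of genes (higher and lower added) are given in the order AAI in control, AAI in hKLF6 OE, AAI in both, genotype without AAI, genotype with AAI, genotype in both. The counts were 2762, 2648, 882, 2331, 2401 and 474. A minimum of 2 gave 679, 731, 309, 542, 557 and 111, a limit of 0.5 gave 531, 533, 96, 295, 326 and 16, and a limit of 1 gave 33, 45, 12, 8, 5 and 0. A pseudocount of 0.1 gave 1549 for AAI in both and 1000 for genotype in both. No filter gave 4230 for AAI in control and 3667 for genotype with AAI. Centring and rescaling without mitochondrial or proximal tubule genes kept the 6 counts within 1.5 times, though centring turned 524 higher and 358 lower with AAI in both into 391 and 476. The 156 identity genes became 374 with a pseudocount of 0.1, 33 at a difference of 2 and 16 against the highest other cluster, and Flt1 and Meis2 stayed among the leading 15 under all 6 alternatives. Lists with a median past 0.15 the same way with AAI in both genotypes numbered 6, and 3 at a minimum of 2, where p53 targets, capillary lipid handling and immediate early genes dropped out. The p53 medians were 0.50 and 0.44, and 0.84 and 1.10 at that minimum, over fewer than the 5 members required. Short genes made up 18.02% of the genes higher with AAI and 54.5% of those lower, 6.76% and 61.0% at a minimum of 2, and 21.7% of the higher genes at a limit of 0.5. The capillary lipid median with AAI in hKLF6 OE turned from 0.24 to -0.011 with no filter. Of 870 values of named genes under alternatives 863 stayed past the limit in their direction and 7 fell short of it. These alternatives were the pseudocount of 0.1, centring and the rescalings, and not another minimum or limit. A smaller pseudocount can only enlarge a difference, so under it no value could fall short. Many of these genes were named for their large differences. Of 353 list medians under alternatives 273 stayed within 0.1, 79 moved further and 1 turned. At a higher minimum fewer genes enter, and at a higher limit the same genes enter and fewer reach it. The cause of the other changes, among them those of shares and medians, was not tested. No paired analysis was possible because each condition is 1 mouse. Leaving out a mouse removes a comparison, so this was not run.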
